A study of Danio rerio with 12 samples.

Results

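The 3 arrays numbered replicate 4 were compared with the 9 arrays numbered replicates 1 to 3, out of 12 arrays of sorted zebrafish endothelium. Membership was read from the sample titles: replicate 4 holds 1 array each of miR-126 MO-1, miR-126 MO-2 and control, and replicates 1 to 3 hold 3 arrays of each. All embryos carried flk1:GFP, a transgene in which the promoter of the VEGF receptor gene flk1 (now kdrl) drives green fluorescent protein, and the cells were collected by fluorescence sorting at 48 hours after fertilization. In the MO-1 and MO-2 groups, 4 ng of 1 of 2 morpholinos, antisense oligonucleotides directed at the processing of the microRNA miR-126, was injected at the one-cell stage. Control replicate 1 is labelled as uninjected, and for control replicates 2, 3 and 4 the labels mention no injection. Each group has 4 biological replicates. The labels do not say what a replicate number stands for, so a shared day, clutch or sort is not known.

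Endothelial cells line blood and lymphatic vessels and are recognised by receptors for VEGF and angiopoietin, by ETS-family transcription factors and by vessel-wall surface proteins. In the zebrafish embryo they share early regulators such as tal1 and lmo2 with blood cells. Cells sorted on a vessel reporter come from a suspension of the whole embryo, in which muscle, epidermis, neural tissue and blood are abundant, and their markers can be read in the same RNA. In such bulk samples, fewer cells of a type and less RNA per cell cannot be told apart.

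Signals of the 3 arrays of replicate 4 correlated with each other at 0.983 to 0.986 over all probe sets, and with the arrays of replicates 1 to 3 at 0.944 to 0.979 with a median of 0.968. Within replicates 1 to 3 the range was 0.957 to 0.992 and the median 0.977 (36 pairs), so the ranges overlapped. After centring on group means, each of the 12 arrays was closest to an array of its own number, which is not particular to replicate 4. The difference between 3′ and 5′ control probe sets, a measure of how much of each transcript was copied, averaged over gapdh and acta1, was 2.64 in MO-1, 2.89 in MO-2 and 2.82 in control of replicate 4, against 1.88 to 2.46 log2 in replicates 1 to 3. These ranges did not overlap. For gapdh alone they did, at 1.76 to 2.09 in replicate 4 and 0.78 to 1.82 in replicates 1 to 3, while acta1, a muscle gene, gave 3.49 to 3.88 in replicate 4 and at most 3.46 in replicates 1 to 3. The part of transcript coverage in the results below was not tested. Array medians lay between 6.80 and 6.86 log2 on all 12 arrays.

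Of 15502 probe sets, 716 (4.62%) differed between replicate 4 and replicates 1 to 3 at an adjusted p under 0.05, with the treatment group as a covariate. They are referred to as called. Of these, 408 (2.63%) were higher and 308 (1.99%) lower in replicate 4, and 229 differed at least 2-fold, 167 higher and 62 lower. When every array was shifted to the same mean of the cytosolic ribosomal protein genes, 594 were called, 416 higher and 178 lower. Among the 7194 probe sets with a mean log2 signal of at least 7, 447 were called, 183 higher and 264 lower, so the balance of directions depended on the signal. With 1 probe set per gene, 249 of 8793 genes (2.83%) were called higher and 205 (2.33%) lower. The median difference over all genes was -0.03 log2, with 45.9% of the genes at a positive and 54.1% at a negative difference. All 3 replicate 4 arrays lay beyond the other 9 for 1288 probe sets (8.31%), above them for 379 genes (4.31%) and below them for 439 genes (4.99%), after each value was centred on its own treatment group.

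Arrays of 1 replicate number resembled each other, so the 3 arrays of replicate 4 may not be independent. With the number as a random block, 283 probe sets (1.83%) were called, all of them among the 716. With 1 mean per number, 1 against 3, only 1 probe set (0.00645%) was called, while 1543 had an unadjusted p under 0.05. In that fit all called pan-endothelial genes and all of the 15 highest and 15 lowest genes described below lost their call. The count of 716 also changed when single arrays were left out. It was 204 without MO-1 replicate 4, 106 without MO-2 replicate 4 and 312 without control replicate 4, and 402 without all 3 arrays of replicate 1. Without any other single array it was 519 to 1040. Leaving out an array of replicate 4 also leaves fewer arrays on that side of the comparison. Lost precision and dependence on that array cannot be told apart in these counts.

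**Figure D1:**
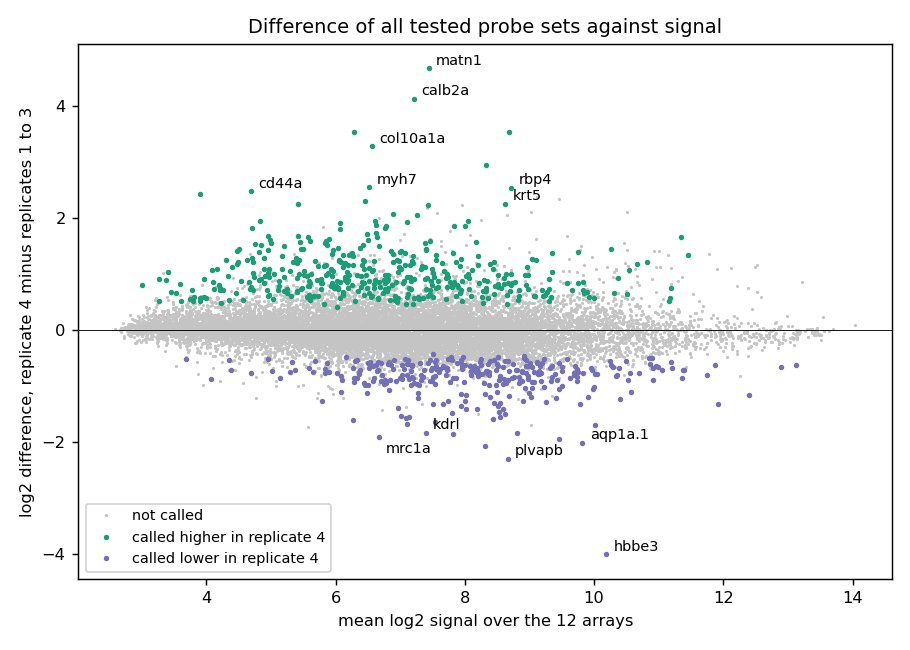
Each point is 1 of 15502 probe sets, plotted by its mean log2 signal over the 12 arrays and by its log2 difference, replicate 4 minus replicates 1 to 3. Green points are the 408 called higher and purple points the 308 called lower; the named genes include matn1 at 4.68 and hbbe3 at -4.01.

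The endothelial genes were lower in replicate 4. Of 13 measured genes of the pan-endothelial list, 9 were called lower and 0 higher, where 2.33% of all genes were called lower, and the median difference was -1.22 log2. With the replicate block 8 were called, and without MO-2 replicate 4 the count was 5. Many textbook markers on the list had no probe set with a single gene symbol and were not analysed here. Kdrl, a VEGF receptor and the source of the reporter's promoter, had a log2 signal of 5.82 in MO-1, 5.88 in MO-2 and 6.36 in control of replicate 4, against 7.46 to 8.51 with a median of 7.78 in replicates 1 to 3. No replicate 4 array reached the lowest of the others. The means were 6.02 ± 0.30 in replicate 4 (SD, n = 3) and 7.85 ± 0.33 in replicates 1 to 3 (SD, n = 9), a 3.55-fold lower signal (difference -1.83, SE 0.19, adjusted p = 0.00042 by limma). These SDs pool arrays of the 3 treatment groups, whereas the SE comes from the fit with the group as a covariate.

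Plvapb, which forms the diaphragms of fenestrated endothelium, fell furthest among the listed genes. Its signal was 6.42 in MO-1, 7.12 in MO-2 and 7.28 in control of replicate 4, against 8.65 to 9.69 with a median of 9.32 in replicates 1 to 3, and the difference was -2.30 (SE 0.24, adjusted p = 0.00037). The angiopoietin pathway receptors followed. Tie1 had 7.35 in MO-1, 7.56 in MO-2 and 7.58 in control of replicate 4, against 8.63 to 9.37 in replicates 1 to 3, a difference of -1.50 (SE 0.18, adjusted p = 0.0011). Tek, which encodes the angiopoietin receptor Tie2, had 6.25 in MO-1, 6.09 in MO-2 and 6.74 in control of replicate 4, against 6.93 to 8.04 in replicates 1 to 3, and differed by -1.22 (SE 0.23, adjusted p = 0.011). Both receptors were lower on every replicate 4 array than on any other array. The tek call was lost without MO-1 replicate 4 and without MO-2 replicate 4.

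The ETS transcription factors erg and fli1 differed by -1.31 (SE 0.17, adjusted p = 0.0016) and -1.26 (SE 0.20, adjusted p = 0.0044). Erg had 7.48 in MO-1, 7.51 in MO-2 and 7.72 in control of replicate 4, against 8.30 to 9.33 in replicates 1 to 3. Fli1 had 7.74 in MO-1, 7.99 in MO-2 and 8.12 in control of replicate 4, against 8.88 to 9.91 in replicates 1 to 3, and its other probe set differed by -1.29. The fli1 call was lost without MO-1 or MO-2 replicate 4. Among surface proteins of the vessel wall, the sialomucin cd34 was 2.64-fold lower and ptprb, a phosphatase that acts on Tie2, 2.14-fold lower, although ptprb was not called without MO-2 replicate 4. Fli1rs, a fli1 relative, fell by 0.68 (adjusted p = 0.041, 0.109 with the replicate block) and its centred values overlapped; it was called in 3 of the 12 fits that leave out 1 array. The other 4 listed genes were not called. The sphingosine phosphate receptor s1pr1 differed by -0.79 (adjusted p = 0.077), the transcriptional cofactor lmo2 by -0.49 (adjusted p = 0.36) and the matrix protein mmrn2a by -0.36 (adjusted p = 0.38). Tal1, the transcription factor shared with blood, differed by 0.04 (adjusted p = 0.97).

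**Figure D2:**
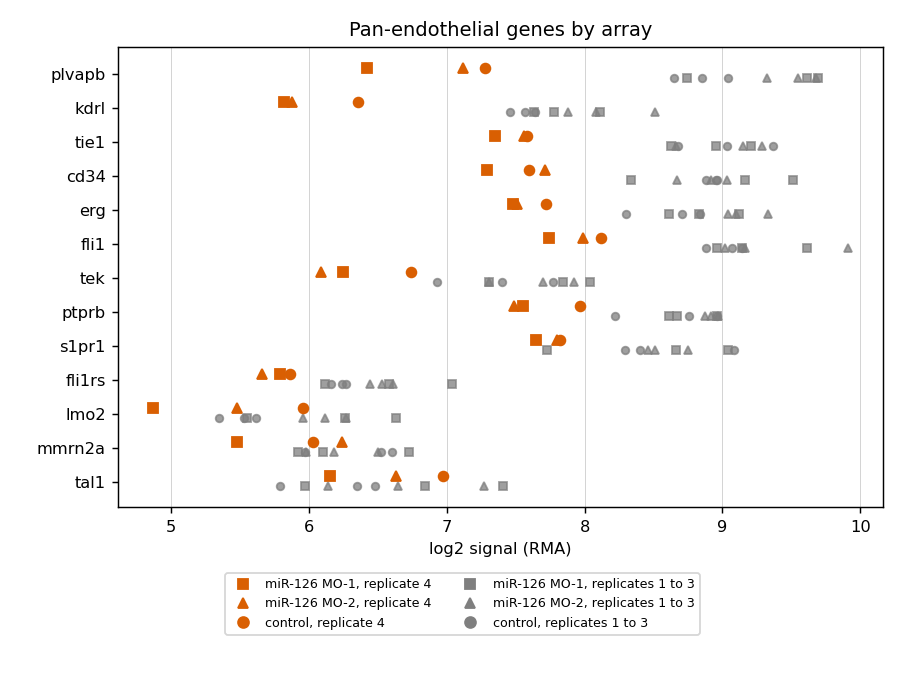
Log2 signal of the 13 measured pan-endothelial genes, 1 point per array, with the 3 replicate 4 arrays in orange above the 9 arrays of replicates 1 to 3 in grey; squares are MO-1, triangles MO-2 and circles control. The orange points of kdrl, plvapb, tie1, tek, erg and fli1 lie left of all grey ones, and those of tal1 lie among them.

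The mean of the 13 genes, each centred on its own group's mean in replicates 1 to 3, was -1.39 in MO-1, -1.20 in MO-2 and -0.68 in control of replicate 4, against -0.15 to 0.13 in replicates 1 to 3. Control replicate 4 was thus the closest of the 3 to the others and still below all of them. A control probe set of the array for which the annotation names no gene moved the same way, with 9.22 in MO-1, 9.08 in MO-2 and 8.80 in control of replicate 4, against 10.49 to 11.98 in replicates 1 to 3. It was the only 1 of 115 control probe sets whose replicate 4 values did not overlap the others. Whether it reads the reporter is not known. Among the other control probe sets, that labelled pd2EGFP differed by -0.15 and that labelled pDsRed1-1 by -1.08, and both overlapped. The pd2EGFP signal was low, at 5.86 to 6.57 in replicate 4 and 6.10 to 6.63 in replicates 1 to 3. The lowest array median was 6.80, so the pd2EGFP difference is no measure of the reporter.

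Genes of particular vessel types were lower as well. Among 12 venous and lymphatic genes 6 were called lower and 0 higher, against 2.33% of all genes called lower, with a median difference of -0.69 log2. The block left 5 calls, and leaving out MO-1 or MO-2 replicate 4 left 3. Mrc1a, a mannose receptor of venous and lymphatic endothelium in zebrafish, had 5.18 in MO-1, 5.12 in MO-2 and 5.43 in control of replicate 4, against a lowest of 6.40 and a median of 7.16 in replicates 1 to 3 (difference -1.90, SE 0.25, adjusted p = 0.0017). Dab2, an endocytic adaptor, fell by 1.31 and tll1, a secreted metalloprotease, by 0.92, a call lost without MO-1 or MO-2 replicate 4. Tie1 stands in this list too. The score of the list was -0.64 in MO-1, -0.94 in MO-2 and -0.66 in control of replicate 4, against -0.12 to 0.11 in replicates 1 to 3, without overlap.

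Among 17 arterial and Notch genes 5 were called lower and 0 higher, against the same 2.33%, and the median difference was -0.41. Only 3 were called with the block. Leaving out control replicate 4, or all of replicate 1, left 3 as well, and leaving out MO-1 or MO-2 replicate 4 left 1. Aqp8a.1, an aquaporin, had 6.87 in MO-1, 8.31 in MO-2 and 8.79 in control of replicate 4, against 8.82 to 10.37 in replicates 1 to 3, so that the control array lay just below the lowest of the others. Its difference was -1.95 (SE 0.35, adjusted p = 0.0087), and the call was lost without MO-1 or MO-2 replicate 4. Esm1, the secreted proteoglycan endocan of sprouting endothelium, fell by 1.55 (SE 0.22, adjusted p = 0.0024). The chemokine receptor cxcr4a fell by 1.27 and the Notch target hey2 by 0.82. The cxcr4a call was lost without MO-1 or MO-2 replicate 4, and hey2 was called in 6 of the 12 fits that leave out 1 array and not with the block (adjusted p = 0.072). Of 34 blood vessel signalling genes 4 were called lower, against the same 2.33%. The count was 2 with the block, 1 without MO-1 replicate 4 and 0 without MO-2 replicate 4. The 4 were cxcr4a, the BMP target id1 (fell by 0.89), the endothelin receptor ednraa (fell by 0.85) and the flow-responsive factor klf2a (fell by 0.58). Klf2a overlapped, was called in 2 of the 12 fits that leave out 1 array and had an adjusted p of 0.134 with the block. Id1 was not called with the block (adjusted p = 0.0506) or without control or MO-2 replicate 4, and ednraa not without MO-1 or MO-2 replicate 4.

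Outside these lists, the 15 genes furthest down among called genes without overlap held several others known from endothelium. Adgrl4, an adhesion receptor of vessels, fell by 1.86 (SE 0.23, adjusted p = 0.0015), and its other probe set differed by -0.83. Fgd5a, an exchange factor for Cdc42, fell by 1.61 and podxl, a sialomucin of the vessel lumen and of kidney podocytes, by 1.56. The water channel aqp1a.1 had 8.08 in MO-1, 8.45 in MO-2 and 8.40 in control of replicate 4, against 9.62 to 10.73 in replicates 1 to 3 (difference -2.01, SE 0.17, adjusted p = 0.00015). Micall2a, a MICAL-like protein, fell by 2.08, the membrane repair protein dysf by 1.54, the linker histone histh1l1 by 1.69 and f13a1b, a subunit of coagulation factor XIII, by 1.55 (adjusted p = 0.027, 0.066 with the block). The other 2 f13a1b probe sets differed by -1.60 and -0.48. Of the 15, 14 were called with the block and 12 whichever array was left out.

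The largest fall among the named genes was in a blood gene. Hbbe3, an embryonic beta globin, had 7.14 in MO-1, 6.74 in MO-2 and 7.67 in control of replicate 4, against 7.92 to 12.68 with a median of 11.48 in replicates 1 to 3. The lowest of the 9, 7.92 in MO-1 replicate 3, lay close to the replicate 4 arrays, and the other 8 were at 10.43 or above. The difference was -4.01 (SE 0.71, adjusted p = 0.0081), and it was not called without MO-2 replicate 4. No other of 20 erythroid genes was called. A count of 1, where 2.33% of all genes were called lower, is no result about the list. Of the 20 genes 9 were higher and 11 lower, and their median was -0.12. That median has no stable direction, at -0.33 without control replicate 4 and 0.11 without MO-2 replicate 4. Among 23 myeloid genes the lysosomal proteases lgmn and ctss2.1 were called lower, by 0.95 and 0.92, where 2.33% of all genes were called lower. The ctss2.1 values overlapped and it was called in 2 of the 12 fits that leave out 1 array, and the lgmn call was lost without MO-1 or MO-2 replicate 4.

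**Figure D3:**
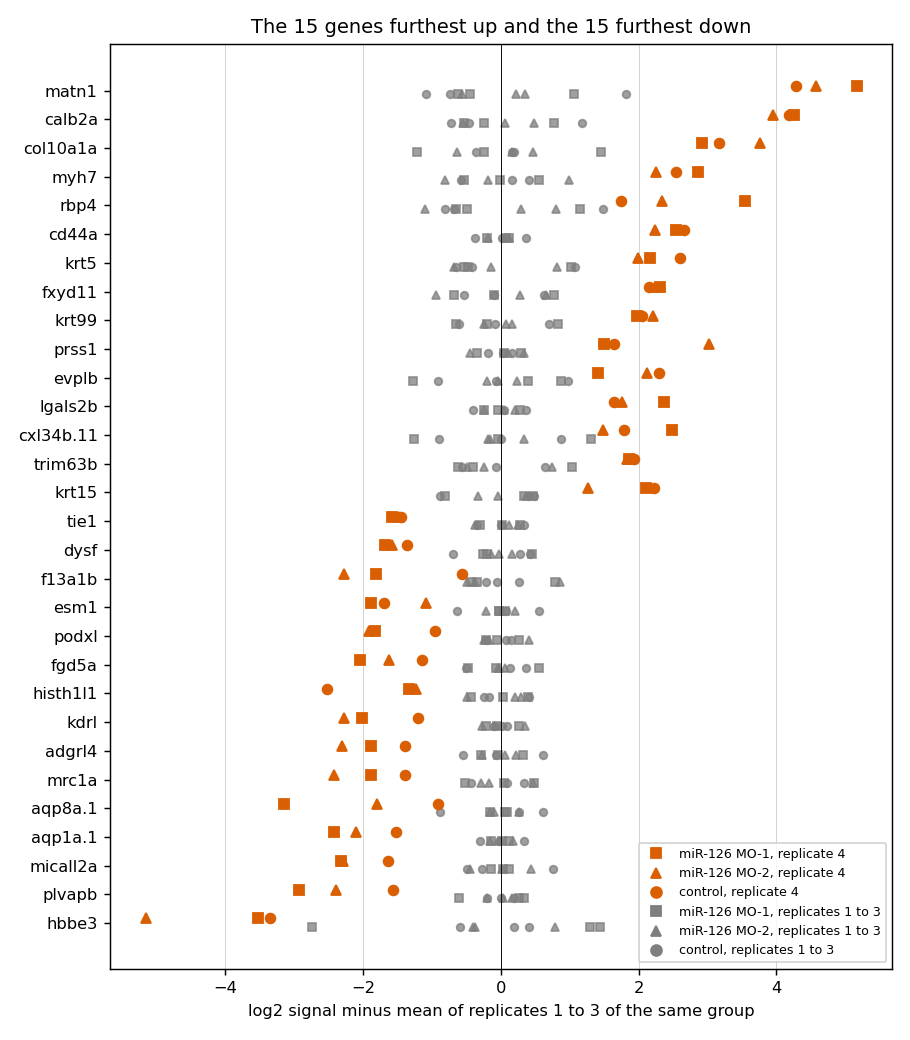
Log2 signal relative to the mean of replicates 1 to 3 of the same treatment group, for the 15 highest and 15 lowest genes among called genes without overlap that have a usable symbol, 1 point per array and replicate 4 in orange above the grey points of replicates 1 to 3. The orange points of matn1 and calb2a lie furthest right, at differences of 4.68 and 4.13, and hbbe3 has 1 grey point, MO-1 replicate 3, near its orange ones.

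Of the 15 genes highest in replicate 4 among called genes without overlap, matn1 and calb2a had the largest differences. Matn1, which encodes the cartilage matrix protein matrilin-1, had 11.17 in MO-1, 10.65 in MO-2 and 11.03 in control of replicate 4, against 5.38 to 8.56 in replicates 1 to 3. Its difference of 4.68 (SE 0.52, adjusted p = 0.00066) is 25.6-fold. Calb2a, the calcium-binding protein calretinin of neurons and hair cells, had 10.27 in MO-1, 10.09 in MO-2 and 10.55 in control of replicate 4, against 5.48 to 7.55 in replicates 1 to 3 (difference 4.13, SE 0.37, adjusted p = 0.00017). All replicate 4 arrays were above all others for both genes.

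Col10a1a, a collagen of hypertrophic cartilage and forming bone, was higher by 3.29 (SE 0.42, adjusted p = 0.0015). Cd44a, the hyaluronan receptor, had 6.56 in MO-1, 6.30 in MO-2 and 6.80 in control of replicate 4, against 3.76 to 4.50 in replicates 1 to 3. Its replicates lay close together, and its difference of 2.48 had the smallest SE of the 15, 0.16 (adjusted p = 1e-05). Myh7, a slow and cardiac myosin heavy chain, was higher by 2.55, and trim63b, a ubiquitin ligase of muscle, by 1.88. The plasma retinol carrier rbp4 was higher by 2.54 (SE 0.55, adjusted p = 0.021), a call lost without MO-1 or MO-2 replicate 4. Fxyd11, of a family of sodium pump regulators, was higher by 2.23, the galectin lgals2b by 1.93 and the chemokine cxl34b.11 by 1.92 (adjusted p = 0.029, 0.066 with the block). The trim63b call was lost whichever replicate 4 array was left out and the fxyd11 call without MO-2 replicate 4, and cxl34b.11 was called in 8 of the 12 fits that leave out 1 array. Of the 15, 13 were called with the block and 8 whichever array was left out. Where 2.83% of all genes were called higher and 2.33% lower, 3 of 44 mesenchyme, cartilage and notochord genes were called higher and 1 lower. The count lower lies near the share over all genes. The median of the list was 0.25, but -0.0067 without MO-1 replicate 4, with 22 genes higher and 22 lower, and 0.0759 without replicate 1. Among the called genes, matn1 was joined by the collagen VI chain col6a3, higher by 1.46, and by runx3, a skeletal transcription factor, higher by 1.02. The other runx3 probe set differed by 0.37. The caveolae protein cav1 was lower by 0.67, while its other 3 probe sets differed by 0.03, -0.55 and -0.70. Of the 4, only matn1 was called whichever array was left out.

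Epidermal genes were higher in replicate 4. Of 50 epidermis and keratin genes 12 were called higher and 0 lower, where 2.83% of all genes were called higher. Of the 50 differences 45 were positive, against 45.9% over all genes, and their median was 0.61 log2. With the block 7 were called, and leaving out control, MO-1 or MO-2 replicate 4 left 5, 3 and 4. Krt5, a keratin of basal epidermis, had 9.91 in MO-1, 10.34 in MO-2 and 10.69 in control of replicate 4, against 7.21 to 9.17 with a median of 7.67 in replicates 1 to 3 (difference 2.25, SE 0.41, adjusted p = 0.0093). Each replicate 4 array was above the highest of the others, and the call was lost whichever of the 3 was left out.

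Krt99, another keratin, had 8.38 in MO-1, 8.45 in MO-2 and 8.51 in control of replicate 4, against 5.76 to 7.24 in replicates 1 to 3 (difference 2.08, SE 0.29, adjusted p = 0.0024). Evplb, an envoplakin of the cell cortex and desmosomes, was higher by 1.95 (adjusted p = 0.020, 0.0505 with the block), a call also lost whichever replicate 4 array was left out. Scel, a sciellin of the cornified envelope, was higher by 1.87 (adjusted p = 0.031), although its arrays overlapped and it was called in 5 of the 12 fits that leave out 1 array, and its other probe set differed by 1.02. Krt15 was higher by 1.86 (adjusted p = 0.0078), not called without MO-1 or control replicate 4. The epidermal score was 0.69 in MO-1, 0.71 in MO-2 and 0.68 in control of replicate 4, nearly the same in the 3 groups, against -0.35 to 0.38 in replicates 1 to 3.

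Skeletal muscle genes had the highest median of the 31 lists, 1.08 log2, but few of them were called. Of 57 genes 54 differences were positive, where 45.9% of all genes had a positive difference. Where 2.83% of all genes were called higher, 5 of the 57 were, 0 of them with the block. They were pvalb2 and pvalb1, parvalbumins of fast fibres, at 1.67 and 1.33, the myogenic factor myog at 1.52 and the sarcomere protein myoz1b at 1.07, with myf5, a myogenic factor named after its value was seen, at 0.68. The muscle score was 1.01 in MO-1, 0.85 in MO-2 and 0.92 in control of replicate 4, against -0.91 to 0.95 in replicates 1 to 3. The overlap came from the arrays of replicate 2, which scored 0.95 in MO-1, 0.53 in MO-2 and 0.81 in control, while the other 6 scored -0.91 to 0.09. The median was 0.67 without replicate 3. Without replicate 2 it was 1.51, and 37 of the 57 were called higher. Leaving out MO-1 replicate 2 alone gave 20 calls, and leaving out control replicate 2 alone gave 9. The count was 0 when MO-1 replicate 4, MO-2 replicate 4 or all of replicate 1 was left out, and 1 when control replicate 4 or all of replicate 3 was. It was 2 without MO-2 replicate 1, and 3 without MO-2 replicate 3 or with equal ribosomal protein means. The replicate 2 arrays had endothelial scores of 0.07 in MO-1, -0.04 in MO-2 and 0.01 in control, so a high muscle score was measured both with and without a low endothelial score.

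**Figure D4:**
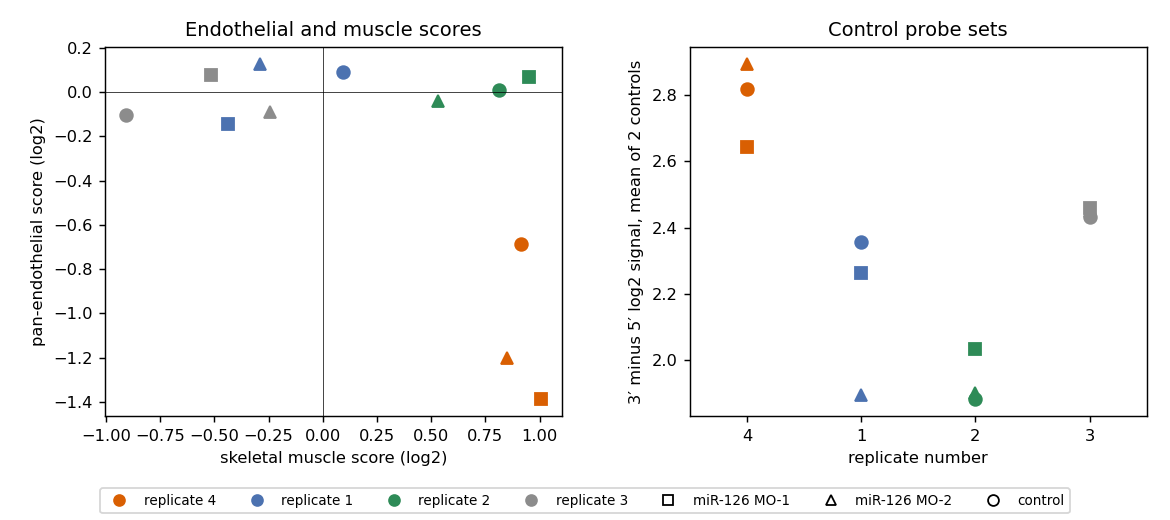
Left, pan-endothelial score against skeletal muscle score in log2 for each array, coloured by replicate number and shaped by treatment group; the replicate 4 arrays lie at the lower right and those of replicate 2 at the upper right. Right, the 3′ minus 5′ log2 signal averaged over the gapdh and acta1 control probe sets, 2.64 to 2.89 in replicate 4 and 1.88 to 2.46 in replicates 1 to 3.

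Smaller groups of calls concerned eye, gut and kidney genes. Of 23 eye and lens genes 7 were called higher and 0 lower, against 2.83% of all genes called higher, 6 of them with the block, 4 without MO-1 replicate 4 and 3 without MO-2 replicate 4. Rcvrn2, a recoverin of photoreceptors, had 6.38 in MO-1, 6.35 in MO-2 and 5.93 in control of replicate 4, against 4.21 to 4.90 in replicates 1 to 3 (difference 1.68, SE 0.17, adjusted p = 0.00036), while its other probe set differed by only 0.10. The retinoid isomerase rpe65a was higher by 1.35, the cone transducin gnat2 by 1.14 and the retinal carrier rlbp1a by 0.98. Of these 4, rpe65a was not called without MO-1 or MO-2 replicate 4, and rlbp1a not without MO-2 replicate 4. The other probe sets of rpe65a and gnat2 differed by 0.60 and 0.72. The median of the whole list was 0.12, with 0.053 without MO-1 replicate 4 and 0.31 without MO-2 replicate 4.

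Of 29 gut and exocrine pancreas genes 6 were called higher and 0 lower, against the same 2.83%, 4 of them with the block, 3 without MO-1 replicate 4 and 2 without MO-2 replicate 4. The median was 0.11, with 0.0159 without MO-1 replicate 4 and 0.24 without MO-2 replicate 4. Prss1, the digestive protease trypsin, had 8.06 in MO-1, 9.71 in MO-2 and 8.63 in control of replicate 4, against 6.22 to 7.15 in replicates 1 to 3 (difference 2.05, SE 0.26, adjusted p = 0.0015). The chymotrypsinogen ctrb.1 was higher by 1.44 and the elastase cela1.6 by 0.91. Without MO-2 replicate 4 neither was called. Of 20 pronephros and ionocyte genes 3 were called higher and 1 lower, where 2.83% of all genes were called higher and 2.33% lower. The list median was 0.51, with a median shift of 0.44 in MO-1, -0.03 in MO-2 and 1.01 in control. The list scores of replicate 4 overlapped those of replicates 1 to 3. The genes called higher were the sodium pump subunits atp1a1a.2 and atp1b1b, at 1.46 and 1.44, and the ion channel trpm7, at 0.71. The other trpm7 probe set differed by 0.09. The trpm7 call was lost whichever replicate 4 array was left out and the atp1a1a.2 call without MO-1 replicate 4. Podxl was the 1 called lower.

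The remaining cell type lists held 3 or fewer calls each, where 2.83% of all genes were called higher and 2.33% lower. The neuron, neural progenitor and liver counts lie near those shares and are no result about these genes. Nor is 1 call in a shorter list. Neuron genes (46) had 1 call each way, cntn1b higher by 0.53 and hpca lower by 0.66. Their median shift was 0.43 in MO-1, 0.35 in MO-2 and -0.50 in control, with 1 array against 3 in each group. This split was not tested. Neural progenitor genes (37) had 1 each way, ascl1a higher by 1.42 and gja1b lower by 0.76. Heart muscle genes (16) had 1 call each way, myh7 higher and gata4, a cardiac factor, lower by 0.94. Liver and plasma protein genes (44) had 2 calls higher, rbp4 and rbp2a, and a median of 0.02. The count was 1 with the block and 0 without MO-1 replicate 4. Smooth muscle and pericyte genes (9) had 2 higher, rgs5a by 2.63-fold and tpm1 by 1.96-fold, and 1 lower, foxc1a, by 1.75-fold. In each list of 2 to 5 calls, leaving out at least 1 of the replicate 4 arrays lowered the count by more than 1.5 times. Not every array did so. Neuron genes had 2 calls, both higher, without control replicate 4, and heart muscle genes had 2, both higher, without MO-2 replicate 4. Single calls were agr2 of 5 hatching gland genes (1.39), mbpa of 15 neural crest and pigment genes (0.58) and fli1 of 6 thrombocyte genes, and 0 of 18 endocrine pancreas and 0 of 30 motile cilia genes were called by limma. Both mbpa and cntn1b had low signals, with means of 4.3 in replicate 4 and 3.8 in replicates 1 to 3. The lower quartile of every array was at least 5.39.

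Of 66 cell cycle genes 57 differences were negative, where 54.1% of all genes had a negative difference. In all, 10 were called lower and 0 higher, where 2.33% of all genes were called lower. The median of the list was -0.28 log2 (-0.18 without replicate 3), against -0.03 over all genes. The list score was -0.21 in MO-1, -0.43 in MO-2 and -0.22 in control of replicate 4, against -0.24 to 0.20 in replicates 1 to 3, so the groups overlapped. The called genes with the largest differences act in DNA replication and repair. Mcm7, a subunit of the replicative helicase, had 10.77 in MO-1, 10.83 in MO-2 and 10.57 in control of replicate 4, against 11.42 to 11.76 in replicates 1 to 3 (difference -0.85, SE 0.11, adjusted p = 0.0019). The single-strand binding subunit rpa2 fell by 0.78, the mismatch repair gene msh6 by 0.75 and the origin recognition gene orc1 by 0.69. Of these 4 only mcm7 was called whichever array was left out. The count was 2 with the block, 6 with arrays shifted to equal ribosomal protein means, 4 without control replicate 4 or without MO-1 replicate 4, 1 without MO-2 replicate 4 and 2 without replicate 1. It was 17 without MO-1 replicate 2.

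Of 76 oxidative phosphorylation subunits 69 differences were positive, where 45.9% of all genes had a positive difference. The median of the list was 0.26, but 0.13 without control replicate 4 and 0.14 without replicate 1. Where 2.83% of all genes were called higher, 5 of the 76 were. Of these 5, 0 were called with the block and 0 whichever replicate 4 array, or all of replicate 1, was left out. Those with the largest differences were sdhc of complex II, at 0.71, ndufs8a of complex I, at 0.64, cox7a2l, at 0.61, and ndufc1, at 0.60. Among the 73 cytosolic ribosomal protein genes 0 were called by limma. For the lists that follow, the shares over all genes were 2.83% called higher and 2.33% called lower. Of 52 immediate early and dissociation response genes, which can be induced while tissue is taken apart, 3 were called higher and 2 lower. Gadd45ga and socs3b were higher by 0.84 each, and neither was called without MO-1 or MO-2 replicate 4. The 2 called lower were id1 and klf2a, described above. Heat shock genes had 3 of 36 called lower, calr, hsf1 and calr3a, by 0.50 to 0.66, and 0 with the block; the other probe set of hsf1 differed by 0.12. Of 19 p53 targets 0 were called by limma. Translation factors (48) had 1 called higher, eef2l2 at 1.62, while 39 of the 48 differences were negative, at a median of -0.14. Eef2l2 overlapped and was called in 2 of the 12 fits that leave out 1 array and not with the block. Its other probe sets differed by 0.46 and 0.31. Glycolysis genes (28) had 1 called lower, the phosphofructokinase pfklb at -0.80, while 21 of the 28 differences were positive, at a median of 0.17. Pfklb was called in 4 of those 12 fits and not with the block, and its other probe sets differed by -0.55 and -0.46. These 2 counts lie near the shares of all genes and are no result about these genes. Proteasome genes (37) had 2 called lower, psmb1 at -0.80 and psmc1a at -0.64, 1 of them with the block.

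**Figure D5:**
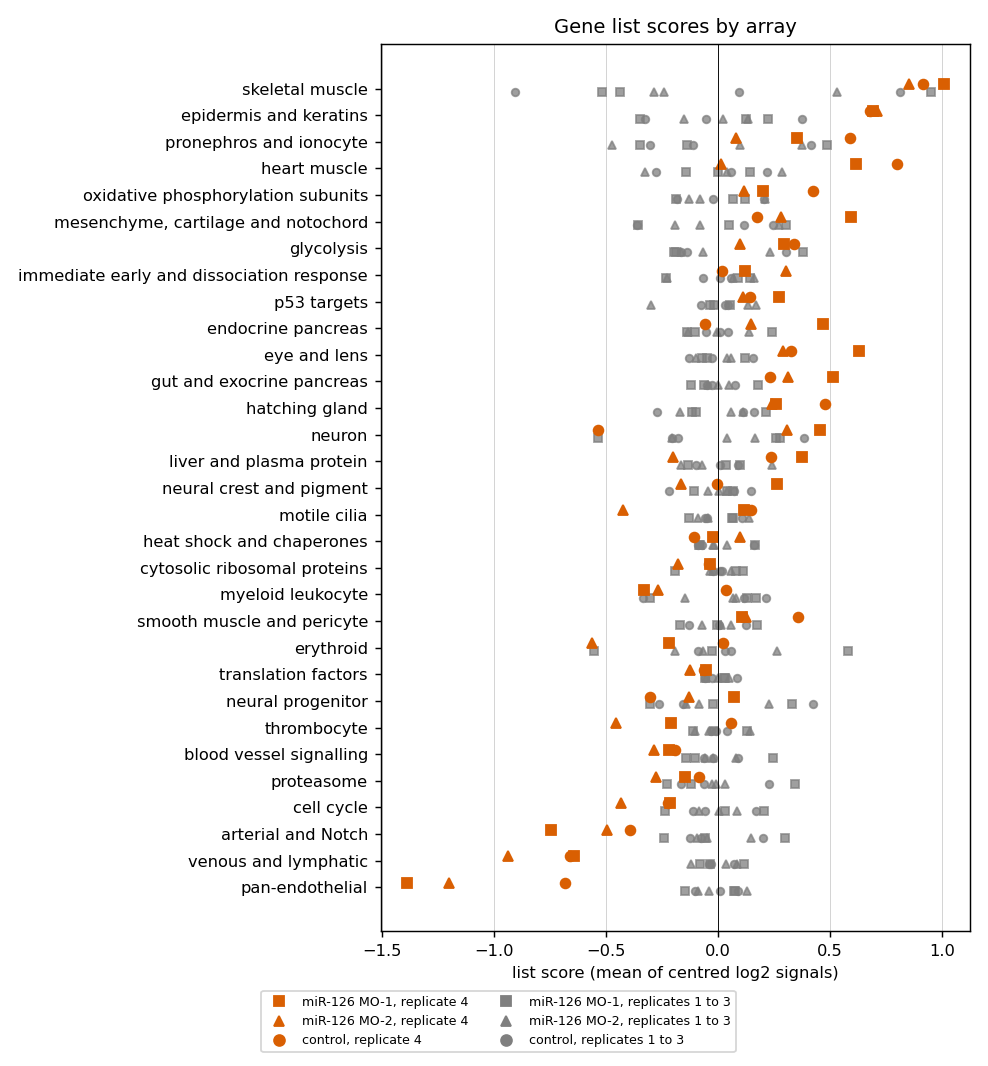
Scores of the 31 gene lists by array, the mean over a list's genes of log2 signal centred on the mean of replicates 1 to 3 in the same treatment group, with lists ordered by median difference and replicate 4 in orange above the grey points of replicates 1 to 3. The pan-endothelial, venous, arterial and blood vessel signalling scores of replicate 4 lie left of all grey points. The epidermal, eye, gut and hatching gland scores lie right of them, while the skeletal muscle scores overlap the grey points.

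The shift of replicate 4 was also compared between treatment groups, each with 1 array against 3. Within MO-1, 17 probe sets (0.11%) were called, within MO-2 39 (0.252%) and within control 12 (0.0774%), with the spread taken from the 9 arrays of replicates 1 to 3, since a lone replicate 4 array gives none of its own and is assumed to vary like them. Leaving out 1 array of replicates 1 to 3 gave 6 to 24 within MO-1, with 6 without MO-1 replicate 1, 6 to 62 within MO-2, with 6 without MO-2 replicate 2, and 7 to 21 within control, with 7 without control replicate 2. The difference of the shifts, tested directly with limma, called 0 probe sets (0%) for MO-1 minus control and 0 for MO-2 minus MO-1. For MO-2 minus control 1 was called (0.00645%). The median SE of such a difference was 0.40 log2, so small differences between the groups were not detectable with these arrays.

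This probe set has no gene name in the annotation used. It had 5.82 in MO-1, 5.44 in MO-2 and 8.64 in control of replicate 4, against 5.21 to 5.68 in replicates 1 to 3, so that 1 array carried the difference of -3.30 (SE 0.37, adjusted p = 0.046). It was not called when any 1 of the 9 arrays of replicates 1 to 3 was left out. With the replicate number as a fixed block 4 probe sets were called for MO-2 minus control, among them both probe sets of nr0b2a, an orphan nuclear receptor that represses bile acid synthesis. Its shift in replicate 4 was -0.03 in MO-1, 1.88 in MO-2 and -1.68 in control, and its difference for MO-2 minus control was 3.55 (adjusted p = 0.0075 with the block, 0.12 without). The block also called 1 probe set for MO-2 minus MO-1. All 30 of the genes furthest up and down shifted the same way in the 3 groups, which the rule that chose them fixed.

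Whether the genes that moved in replicate 4 also follow the endothelial genes elsewhere was described over the 9 arrays of replicates 1 to 3, centred on group means, which share the scaling of the table. The endothelial score spanned only -0.15 to 0.13 there. The median correlation with it was 0.005 for the 196 genes called lower in replicate 4, endothelial list left out, -0.004 for the 249 called higher and -0.006 for all 8780 genes, so the called genes were centred where all genes were. For the endothelial genes themselves it was 0.30, each set against the mean of the others, which was not particular to them: it was 0.29 for skeletal muscle and 0.27 for pronephros and ionocyte genes. It was -0.10 for venous and lymphatic and -0.19 for arterial and Notch genes.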

How the data were processed

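Members and gene lists were chosen with earlier results of these data known. Per the labels, Trizol RNA was amplified (NuGen WT-Ovation Pico) and hybridised with biotin to one-colour Affymetrix zebrafish arrays. The authors deposited log2 signals per probe set, made with Robust Multi-array Average (RMA) per the submitters' processing notes, with no version given in the sources used here; base 2 was read from the range of the values. After removal of 115 control probe sets from 15617, all 15502 entered the tests, whatever their signal. The annotation gave 1 symbol for 10795, several for 135 and none for 4572. Of a gene's probe sets the one with the highest mean stood for it, which gave 8793 genes. Limma 3.58.1 in R 4.3.3 fitted treatment group and replicate 4 (two-sided, Benjamini-Hochberg over all probe sets, threshold 0.05). The median SE was 0.16 log2, with a 95% half-width of 0.35, and the number of arrays limits the precision. P-values measure the spread between these arrays. SE is limma's standard error.

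After centring on group means, same-numbered arrays correlated at 0.223 to 0.626 (12 pairs) and other pairs at a median of -0.17, and for 12 of 12 arrays the closest array of another group shared its number. A fit with the number as a block was therefore added. In the main comparison the random block used a single correlation of 0.16 for all probe sets. It gave a median SE of 0.19, against 0.16 without it. The block may thus correct too little for probe sets that vary more with the number. The 31 lists are given by counts and medians, without a test of a list; 28 of 974 listed genes are in more than 1 list. Named genes were all measured pan-endothelial genes, the 15 highest and 15 lowest called genes whose replicate 4 arrays lay beyond all others (symbols of unnamed loci left out), up to 4 called members of a list, or up to 2 where none was called, and the 3 genes of smallest p for each difference between groups. The fit was also run on simulated data with noise drawn independently for each probe set, and no result here rests on that run. Alternatives changed the block, covariate, filter, prior, scaling and the arrays used. For many named genes the differences of their other probe sets are given. Sequences and genome positions were not used here.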

Additional observations from a re-analysis of the deposited data

Results flagged for a closer look

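Among 71 values tested for a single array far from the rest of replicates 1 to 3, 2 were flagged, where chance flags about 1 in 20. These 2 flags are thus no more than chance gives. Hbbe3 in MO-1 replicate 3 lay at -2.74 log2 relative to its group's mean, with a signal of 7.92 against 10.43 to 12.68 on the other 8 arrays. The score of the cytosolic ribosomal protein genes in MO-1 replicate 2 was -0.19, against -0.04 to 0.11 on the other 8.

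The shift of replicate 4 differed between MO-2 and control for 1 probe set without a gene name, by -3.30 log2 (limma, adjusted p = 0.046), and control replicate 4 alone, at 8.64, stood away from the other 11 arrays. Outside the tested probe sets, a control probe set for which the annotation names no gene was lower in replicate 4 by a difference of -1.98 log2, with 8.80 to 9.22 in replicate 4 and 10.49 to 11.98 in replicates 1 to 3.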

How the results depend on the processing

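The count of 716 probe sets called was 283 with the replicate block, 1 with 1 mean per replicate number and 447 (183 higher and 264 lower) among the probe sets with a mean log2 signal of at least 7, which tests fewer probe sets. It was 973 without the covariate, 725 after quantile normalization and 727 with a trended, robust prior. With 1 array or 1 replicate number left out it ranged from 106 to 1040. For the shift of replicate 4, MO-2 minus control, 1 was called, 0 at a signal of at least 7, 4 with the replicate block and 0 to 0 with 1 array left out; for MO-2 minus MO-1 the block called 1. Within groups, leaving out 1 array gave 6 to 24 in MO-1, 6 to 62 in MO-2 and 7 to 21 in control. Of 434 list medians under other settings 17 moved by more than the spread between replicates. With 1 array left out, medians ranged from -1.43 to -1.05 for pan-endothelial, -0.75 to -0.61 for venous and lymphatic, 0.053 to 0.31 for eye and lens, 0.0159 to 0.24 for gut and exocrine pancreas, 0.0859 to 0.58 for heart muscle, -0.12 to 0.43 for neuron, -0.0794 to 0.15 for liver and plasma protein, -0.15 to 0.14 for motile cilia, -0.0482 to 0.21 for endocrine pancreas and -0.30 to -0.0796 for thrombocyte genes. With equal ribosomal protein means, which adds 0.085 to every difference, the translation factor median was -0.0516 and the venous one -0.61. Of 868 values of 40 named genes under other settings, 773 kept their direction and side of the threshold and 87 lost the call. With 1 mean per number 36 lost it, which is every gene of the 40 that was called in the main fit. Of the 868 values, 3 gained the call and 5 changed sign. The 5 were of tal1, which was never called: -0.06 without MO-1 replicate 1, -0.05 without control replicate 2, -0.04 without MO-2 replicate 2, -0.32 without control replicate 4 and -0.10 without replicate 2, and with 1 array left out its difference ranged from -0.32 to 0.353. The causes were not tested.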
